A study of Mus musculus with 4 samples.

Results

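The genes described here encode the secreted ligands, the receptors and the modulators of Wnt signalling, measured in the hippocampus of mouse pups at postnatal day 2. Members were the probe sets whose single gene symbol belongs to the Wnt, Fzd, Sfrp, Dkk or Rspo families, or is 1 of a short set of named receptors, inhibitors and nuclear factors of the pathway. The rule itself uses names alone, and the pathway was chosen with earlier results of these data known. It gave 55 of 18193 genes with a single symbol, through 116 of 45037 probe sets. No probe set named Tcf7 alone, so this factor was not analysed here. Fzd10os, a transcript from the strand opposite to Fzd10, was taken in by its name and is kept apart from the receptors.

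Total RNA was measured on 4 Affymetrix arrays. The 2 control arrays held hippocampi labelled wildtype, and the 2 knockout arrays held hippocampi labelled as knockout of Zbtb20, a zinc finger transcription factor whose targets in the developing hippocampus the study sought. All came from postnatal day 2, with littermates as controls. The labels state neither the deleted part of Zbtb20, nor the strain, nor how many animals gave RNA to an array, so the spread between arrays of a group may be technical in part.

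Wnt proteins are lipid-bearing secreted ligands. They bind Frizzled receptors together with the co-receptors Lrp5 and Lrp6, which protects beta-catenin from destruction and lets it act with TCF/LEF factors on target genes. R-spondins strengthen the signal, and Sfrp, Frzb, Wif1 and most Dkk proteins restrain it outside the cell. In the developing telencephalon Wnt genes are expressed in the cortical hem, the signalling centre at the edge of the hippocampal primordium, and the pathway is required for the hippocampus to form.

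The arrays came on 2 scales that followed the replicate number, with a trimmed mean signal of 497 to 498 on the replicate 1 arrays and of 156 to 158 on the replicate 2 arrays. Differences are therefore given within each replicate number, as the knockout-labelled minus the control-labelled array on the scale log2(signal + 32.56); pair 1 stands for replicate 1 and pair 2 for replicate 2. Such a value sets 1 array against 1 array and has no error of its own. It understates the difference of dim probe sets. Of 9 Zbtb20 probe sets, 3 were lower in the knockout-labelled array in pair 1, 2 in pair 2 and 0 in both, so the signal of the targeted gene did not settle the labels, and each direction given here follows the labels as they stand. The arrays also differed in transcripts of liver and of the sex chromosomes. The 9 liver genes with a probe set other than Ttr had a summed signal of 61003 (control) and 20207 (knockout) in pair 1, against 362 and 374 in pair 2, and the Y-linked Eif2s3y was at 304.5 and 10.7 in pair 1 against 714 and 830.1 in pair 2. Xist, transcribed from the inactive X chromosome of females, was at 2994 and 4093 in pair 1 against 36.3 and 39.9 in pair 2. Both transcripts thus differed between the pairs, and Eif2s3y also within pair 1, and their part in the Wnt values was not tested. Of 10 marker genes of hippocampus and pallium with a probe set, among them Prox1, Neurod6 and Emx2, 0 lay below the array median on all 4 arrays, 5 were higher and 5 lower in pair 1, and 6 were higher and 4 lower in pair 2. Nectin3, named after its values were seen as the widest apart, had 1022 and 3388 in pair 1 and 1087 and 545 in pair 2 (log2 1.70 and -0.96).

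Across all 4 arrays, 0 Wnt pathway members differed between the labelled groups by the test's threshold. A limma fit without a replicate term covered 27022 probe sets that passed a filter on dim signals, 72 of them members, and called 0 (0% of all probe sets tested) at a Benjamini-Hochberg adjusted p of 0.05. At an unadjusted p under 0.05 it found 5 probe sets (0.0185%), of which 0 were members. With the replicate number as a term it again called 0, and 330 probe sets (1.22%), 1 of them a member, were under an unadjusted p of 0.05. Without that term the difference between the scales enters the error, and the SE of the members' log2 differences lay between 0.57 and 1.99. In that fit a difference of log2 1 was thus under 2 SE for all 72 kept. With the replicate term the members' SE was smaller, from 0.16 for a Ctnnb1 probe set to 0.51 for an Rspo2 probe set, so this limit does not carry over.

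Secreted modulators held the widest differences, and these ran in opposite directions in the 2 pairs. In the knockout-labelled array Dkk3, Sfrp1, Rspo2 and Rspo3 were below the control in pair 1 and above it in pair 2, in all 10 of their probe sets that were kept. Frzb and Fzd7 showed the reverse, with signs met by 13 of the 72 members kept and by 6290 of all 27022 probe sets tested. Of the 72 members kept, 9 (12.5%) were over log2 0.3 lower in pair 1 and over log2 0.3 higher in pair 2, against 2.21% of all probe sets tested. All 9 belong to Dkk3, Sfrp1, Rspo2 and Rspo3, so they represent 4 genes and not 9 independent measurements. The reverse pattern, over log2 0.3 in both pairs, was met by 1 member, for Fzd7, against 2.51% of all. In the same direction in both pairs, 0 members were over log2 0.3 apart, against 1.34% of all. Because each pair holds 1 array per group, whether the pairs differ was not tested. All 7 genes listed as markers of the subiculum and retrosplenial cortex, regions beside the hippocampus, had the signs of Dkk3 in each pair. Of all probe sets tested 30.5% had these signs, and the list was chosen with earlier results of these data known. Their summed signal was 39456 (control) and 14164 (knockout) in pair 1 and 2481 and 9808 in pair 2, a ratio of 0.359 and of 3.95, and 0 of the 7 lay below the array median on all arrays. Nts held a large part of the sum, with 21361 and 7002 in pair 1 and 1314 and 5950 in pair 2. Single genes ranged from Tshz3 (log2 -2.20 and 2.34) to Ntng2 (log2 -0.33 and 0.08). The part of these regions in the values of the modulators was not tested. In whole tissue, fewer cells of a type and less RNA per cell cannot be told apart.

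**Figure D1:**
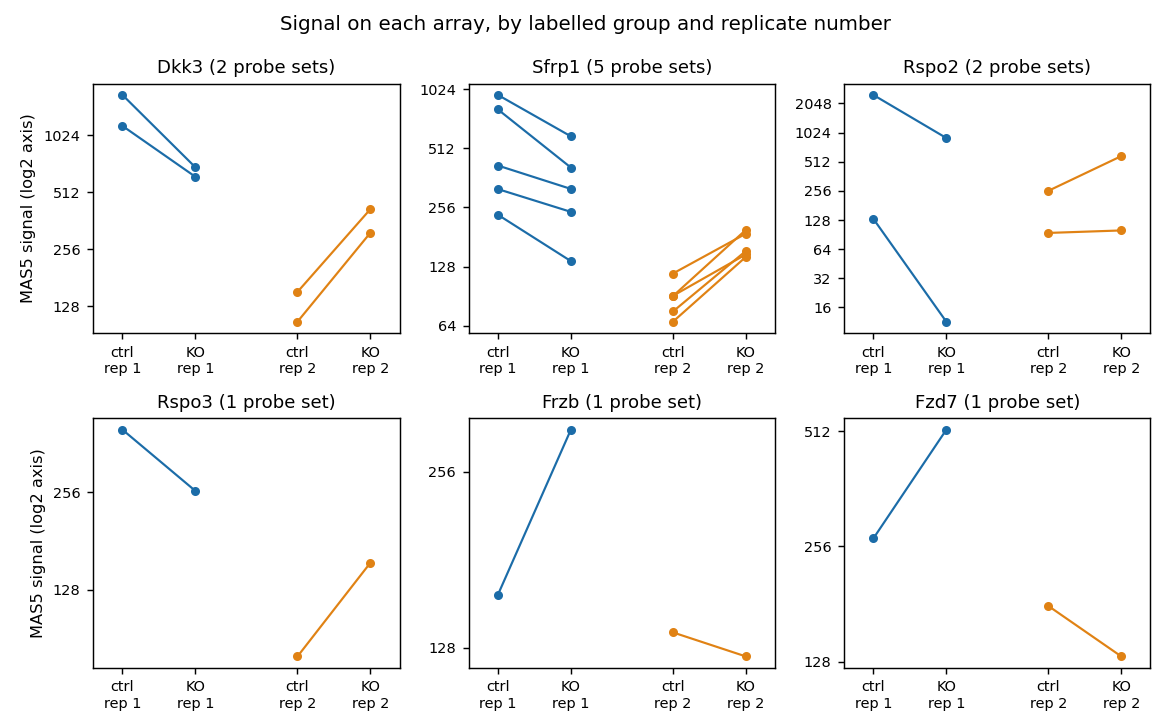
MAS5 signal (log2 axis) of the kept probe sets of Dkk3, Sfrp1, Rspo2, Rspo3, Frzb and Fzd7 on each array, with a line joining the control and the knockout array of the same replicate number (blue for replicate 1, orange for replicate 2). For the first 4 genes every line ends lower at the knockout array in replicate 1 and higher in replicate 2, and for Frzb and Fzd7 the reverse.

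Frzb and Fzd7 have an entry in the RefSeq promoter table (GRCm38.p6). Their sequences are shown because their signs were opposite to those of Dkk3, Sfrp1, Rspo2 and Rspo3, though in pair 2 Frzb differed by log2 -0.11 only. Other members, such as Sfrp4 and 2 probe sets of Apcdd1, had these signs too. Of 55 member genes 36 matched that table, and Dkk3, Sfrp1, Rspo2 and Rspo3 did not. Each line gives the 250 bases before the start site, from 5′ to 3′ on the strand of the gene. The window of Frzb is chr2:80447397-80447646 on the minus strand, and that of Fzd7 is chr1:59481897-59482146 on the plus strand. Capitals mark matches, on either strand, to the TCF/LEF core CTTTGA and to the GC box GGGCGG.
Frzb: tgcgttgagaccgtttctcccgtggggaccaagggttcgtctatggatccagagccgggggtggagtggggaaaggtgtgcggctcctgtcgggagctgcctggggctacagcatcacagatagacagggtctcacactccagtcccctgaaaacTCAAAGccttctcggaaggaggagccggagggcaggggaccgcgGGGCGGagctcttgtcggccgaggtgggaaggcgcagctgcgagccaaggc
Fzd7: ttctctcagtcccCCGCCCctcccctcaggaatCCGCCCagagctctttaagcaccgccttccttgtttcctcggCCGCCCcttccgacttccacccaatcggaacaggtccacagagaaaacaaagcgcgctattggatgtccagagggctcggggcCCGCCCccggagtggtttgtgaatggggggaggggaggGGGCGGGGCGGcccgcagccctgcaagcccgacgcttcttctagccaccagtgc
The Frzb window held 1 TCF/LEF core, on the opposite strand and starting 95 bases before the start site, and 1 GC box. The Fzd7 window held 0 matches to CTTTGA and 6 GC boxes, 2 of which overlap. Only the exact string CTTTGA was searched as the TCF/LEF core, so variants of it were not counted in either window. The core was found in 13.8% of all 32851 windows of this length, and in 6 of the 44 windows of member genes (13.6%). The GC box was found in 32.7% of all windows and in 31 of 44 member windows (70.5%), and the median GC content was 52.4% over all windows and 66.8% over those of members. A match is a string of letters and not a known binding site.

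R-spondins, which raise Wnt receptor levels at the cell surface, had medians of log2 -1.44 in pair 1 and 0.74 in pair 2 over 3 kept probe sets. Rspo2 (1455893_at) showed signals of 2509 (control) and 901 (knockout) among the replicate 1 arrays and of 257 and 586 among the replicate 2 arrays. The knockout-labelled array was thus lower in pair 1, at 0.359 times the control, and higher in pair 2, at 2.28 times (log2 -1.44 in pair 1 and 1.10 in pair 2). The other Rspo2 probe set kept, 1430104_at, was at 132 and 11.4 in pair 1 and 94.2 and 99.9 in pair 2, so that its pair 1 difference of log2 -1.90 rests on a dim knockout signal, and its pair 2 difference was 0.064. Rspo3 (1455607_at) showed signals of 399 (control) and 258 (knockout) among the replicate 1 arrays and of 79.7 and 155 among the replicate 2 arrays (log2 -0.57 in pair 1 and 0.74 in pair 2). Its second probe set, 1443187_at, fell under the filter and had the same signs, with differences of log2 -0.56 and 0.25. In limma's fit across the 4 arrays the difference of Rspo2 was log2 -0.17 ± 1.60 (SE, n = 2 per group, adjusted p = 1) and that of Rspo3 0.09 ± 1.10 (adjusted p = 1). That fit had no replicate term, so its SE includes the difference between the scales. With the term the SE was 0.51 for Rspo2 (1455893_at) and 0.31 for Rspo3 (1455607_at). Rspo1 and Rspo4 had no probe set above the filter.

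Among secreted inhibitors the wider differences were those of Dkk3, Sfrp1 and Frzb. Dkk3 encodes a dickkopf family protein that, unlike Dkk1, is not a classical Lrp5/6 antagonist. Its probe set 1417312_at showed signals of 1667 (control) and 691.5 (knockout) among the replicate 1 arrays and of 152 and 416 among the replicate 2 arrays, a ratio of 0.415 and of 2.74 (log2 -1.23 in pair 1 and 1.28 in pair 2). The second, 1448669_at, had 1144 and 616 in pair 1 and 106 and 312 in pair 2 (log2 -0.86 in pair 1 and 1.32 in pair 2). By size of the pair 2 difference these probe sets ranked 63 and 57 among the 27022 tested, and by size of the pair 1 difference 626 and 1755. In limma's fit without a replicate term 1417312_at differed by log2 0.03 ± 1.48 (SE, n = 2 per group, adjusted p = 1), and with the term its SE was 0.50.

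Sfrp1, a secreted Frizzled-like protein that binds Wnts, was represented by 5 probe sets, and all 5 were below the control in pair 1 and above it in pair 2. The brightest, 1428136_at, had 955.5 and 589 in pair 1 and 90.8 and 148 in pair 2 (log2 -0.67 in pair 1 and 0.55 in pair 2), and 1448395_at, the widest apart, had 806 and 408 in pair 1 and 90.5 and 197 in pair 2 (log2 -0.93 in pair 1 and 0.90 in pair 2). Over the 5 probe sets the difference ranged from -0.93 to -0.34 in pair 1 and from 0.55 to 0.90 in pair 2. These probe sets read the same RNA and are not replicates of the groups.

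Frzb, another secreted Frizzled-related inhibitor, went the other way in pair 1 (1416658_at, 158 and 302 in pair 1 and 136 and 124 in pair 2, log2 0.81 in pair 1 and -0.11 in pair 2). Its dimmer probe set 1448424_at, under the filter, differed by log2 0.98 and -0.23. Sfrp2 (1448201_at), expressed in neural progenitors, was at 310.1 and 207 in pair 1 and 126 and 127 in pair 2 (log2 -0.52 in pair 1 and 0.0097 in pair 2), so that its 2 replicate 2 arrays were nearly equal. Sfrp5 (1436075_at) was at 201 and 115 in pair 1 and 44.8 and 45.4 in pair 2 (log2 -0.66 in pair 1 and 0.012 in pair 2), and Sfrp4 (1451031_at) at 189 and 200.5 in pair 1 and 77.4 and 75.7 in pair 2 (log2 0.073 in pair 1 and -0.022 in pair 2). The pair 2 values of Sfrp2 and Sfrp5 turned sign with quantile normalization. Over the 11 kept probe sets of secreted inhibitors, 9 were below the control in pair 1 and above it in pair 2 (medians log2 -0.66 and 0.55). Of all probe sets tested 30.5% had that pair of signs, and the medians of all were -0.02 and 0.02. The 9 were 5 probe sets of Sfrp1, 2 of Dkk3, and those of Sfrp2 and Sfrp5. The count and the medians thus rest mainly on Sfrp1 and Dkk3, whose probe sets are not independent measurements. Dkk1, Dkk2, Dkk4 and Wif1 had no probe set above the filter.

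**Figure D2:**
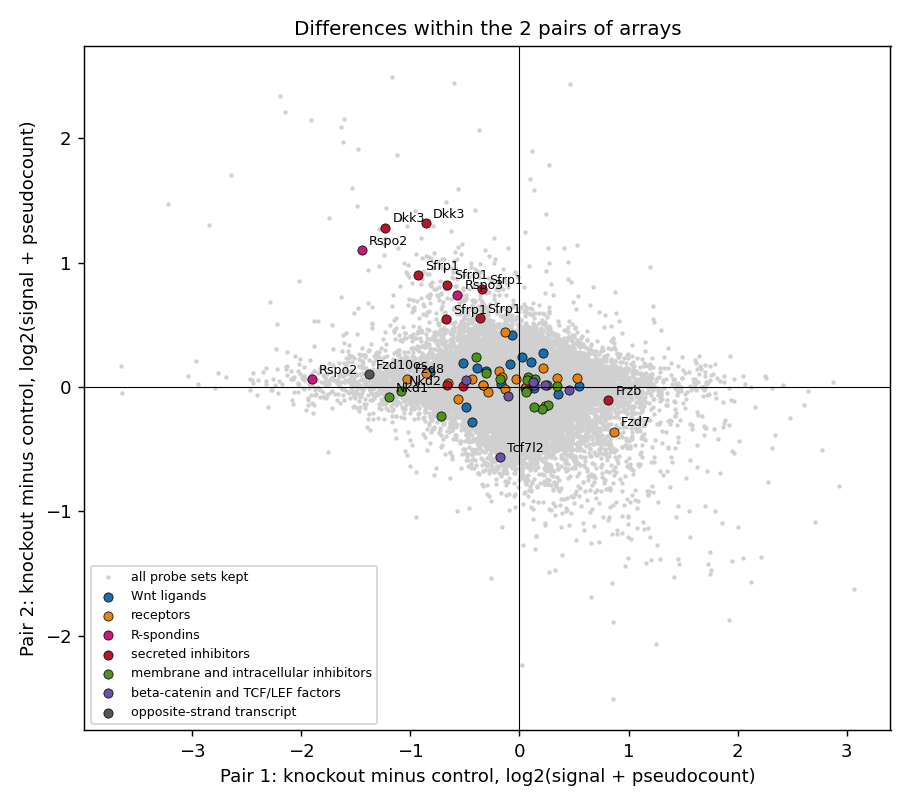
Difference between the knockout-labelled and the control-labelled array, on the log2(signal + pseudocount) scale, in pair 1 (horizontal axis) and pair 2 (vertical axis), for all 27022 probe sets kept (grey) and the 72 members (coloured by role). Dkk3, Sfrp1, Rspo3 and 1 probe set of Rspo2 lie at the upper left, and most other members lie close to the horizontal axis, with pair 2 differences within log2 0.44 in size except Tcf7l2.

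Only a part of the Wnt ligand family passed the filter. Of 32 ligand probe sets, for 19 genes, 16 probe sets of 9 genes were kept. Their median difference was log2 -0.08 in pair 1 and 0.12 in pair 2, and on the log2(signal + 32.56) scale 0 were over log2 1 apart in either pair, while 1 (a Wnt8b probe set) was over 2-fold lower in pair 1 by the ratio of deposited signals. Wnt8b, a ligand of the cortical hem and medial pallium, was dim throughout. Its probe set 1421439_at had 117 and 51.9 in pair 1 and 74.5 and 83.4 in pair 2 (log2 -0.82 in pair 1 and 0.12 in pair 2), and 1441316_at had 127 and 80.9 in pair 1 and 59.9 and 50.3 in pair 2 (log2 -0.49 in pair 1 and -0.16 in pair 2), so the probe sets had 1 sign in pair 1 and opposite signs in pair 2. Wnt5a, a ligand that often signals without beta-catenin, was higher in pair 2 in all 4 of its probe sets, by log2 0.19 to 0.42, and its pair 1 differences ranged from -0.52 to 0.22. Its brightest probe set, 1436791_at, had 278 and 264.5 in pair 1 and 138 and 196 in pair 2 (log2 -0.066 in pair 1 and 0.42 in pair 2).

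Wnt7b, which acts on dendrites and on brain vessels, lay above the array median on all 4 arrays (1420892_at, 874 and 946 in pair 1 and 217 and 254 in pair 2), and its knockout-labelled arrays were slightly higher in both pairs (log2 0.11 in pair 1 and 0.20 in pair 2). Its second probe set, 1420891_at, differed by log2 -0.39 and 0.15. Wnt7a (1423367_at), a paralogue of Wnt7b, had 669 and 590.4 in pair 1 and 83.0 and 84.8 in pair 2 (log2 -0.17 in pair 1 and 0.022 in pair 2), and its pair 2 value turned sign with quantile normalization. The other kept Wnt7a probe set, 1447647_at, differed by log2 0.13 and -0.0056. Wnt4 (1450782_at) was lower in both pairs, with 411 and 295 in pair 1 and 105 and 81.1 in pair 2 (log2 -0.44 in pair 1 and -0.28 in pair 2), while 1441687_at differed by log2 0.36 and -0.054. Wnt11 (1450772_at), a ligand of the planar polarity branch, was at 34.4 and 65.1 in pair 1 and 182 and 183 in pair 2 (log2 0.54 in pair 1 and 0.0062 in pair 2), and Wnt9a (1436978_at) at 190 and 147.5 in pair 1 and 73.6 and 83.2 in pair 2 (log2 -0.31 in pair 1 and 0.12 in pair 2). The pair 2 value of Wnt11 also turned sign with quantile normalization.

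Wnt3a and Wnt2b, also ligands of the cortical hem, did not pass the filter. Wnt3a (1422093_at), which is required for the hippocampal primordium to grow, had 41.0 and 12.7 in pair 1 and 71.2 and 81.4 in pair 2, and Wnt2b (1421465_at) had 8.9 and 90.0 in pair 1 and 28.9 and 29.1 in pair 2. By position in the RefSeq gene table, 4 couples of members are direct neighbours among protein-coding genes, namely Wnt6 and Wnt10a, Wnt3a and Wnt9a, Wnt9b and Wnt3, and Wnt10b and Wnt1. Both genes of the couple were kept for Wnt6 and Wnt10a alone, with differences of log2 0.051 in pair 1 and -0.013 in pair 2 for Wnt6 (1419708_at) and log2 0.025 in pair 1 and 0.24 in pair 2 for Wnt10a (1460657_at).

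**Figure D3:**
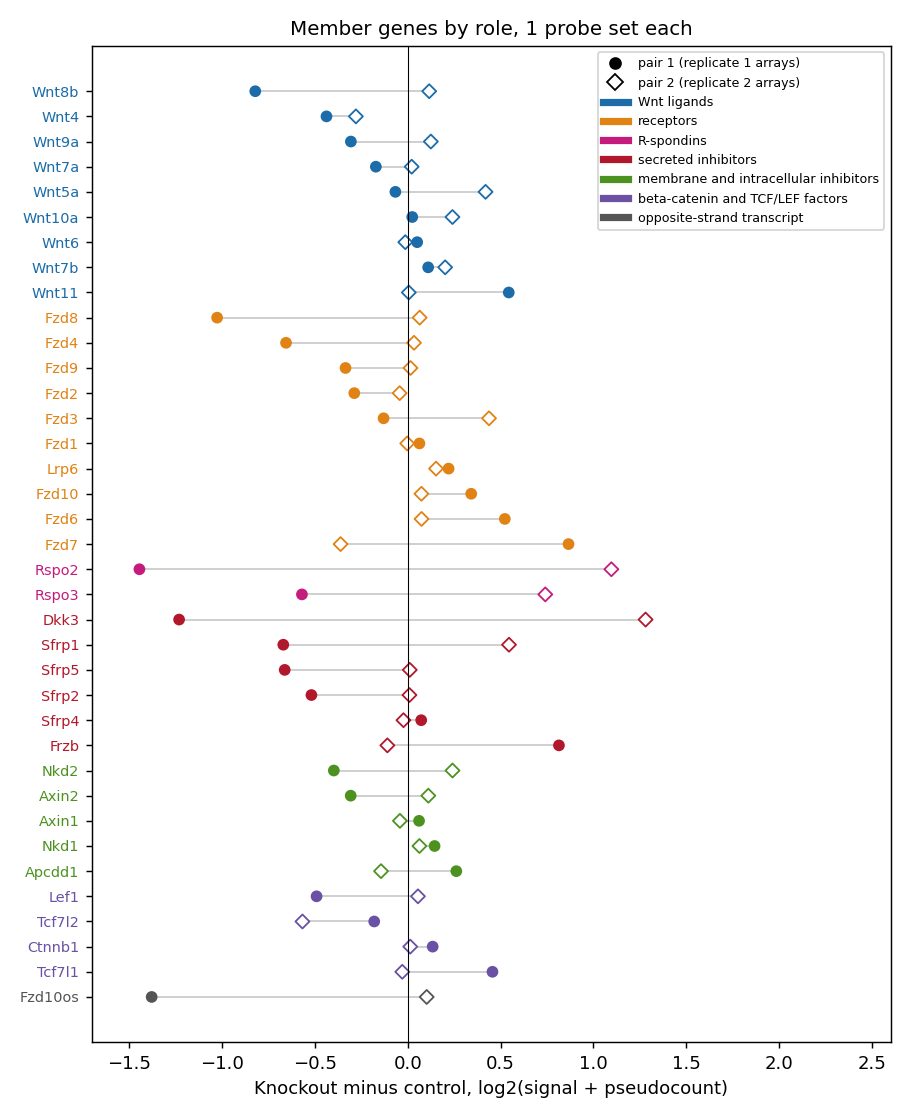
Difference between the knockout-labelled and the control-labelled array, on the log2(signal + pseudocount) scale, for the 37 member genes kept, each through its brightest probe set, in pair 1 (filled circles) and pair 2 (open diamonds), coloured by role. Pair 1 values spread from -1.44 for Rspo2 to 0.87 for Fzd7, and the widest gaps between the pairs are those of Rspo2 and Dkk3.

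Receptor differences lay within log2 0.44 in size in pair 2 and reached log2 -1.03 in pair 1. Over 19 kept probe sets of 10 receptor genes the medians were log2 -0.16 in pair 1 and 0.06 in pair 2. Fzd7 (1450044_at), a Frizzled of progenitor cells, showed signals of 269 (control) and 517 (knockout) among the replicate 1 arrays and of 179 and 132 among the replicate 2 arrays (log2 0.87 in pair 1 and -0.36 in pair 2). In pair 1 the knockout-labelled array was the higher, and in pair 2 the lower. The other Fzd7 probe set, 1450043_at, was dim, fell under the filter and had the opposite signs, with differences of log2 -0.07 and 0.04. Fzd8 (1423348_at) had 341 and 151 in pair 1 and 51.7 and 55.6 in pair 2 (log2 -1.03 in pair 1 and 0.065 in pair 2), a difference over 2-fold in pair 1 alone. Fzd3, a Frizzled needed for axon tracts of the forebrain, lay above the array median on all 4 arrays (1434788_at, 2219.7 and 2026 in pair 1 and 625 and 858 in pair 2, log2 -0.13 in pair 1 and 0.44 in pair 2). All 5 kept Fzd3 probe sets were lower in pair 1, with differences from log2 -0.85 to -0.03, and higher in pair 2, with differences from 0.06 to 0.44.

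Fzd1 (1437284_at) was nearly equal between the groups, at 1491 and 1559 in pair 1 and 300.1 and 299.5 in pair 2 (log2 0.063 in pair 1 and -0.0024 in pair 2), with a pair 2 value that turned sign with quantile normalization and with a common trimmed mean. The dimmer Fzd1 probe set 1422985_at differed by log2 -0.13 and -0.015. The co-receptor Lrp6 (1428500_at) was at 408 and 481 in pair 1 and 165 and 187 in pair 2 (log2 0.22 in pair 1 and 0.15 in pair 2), and its dimmer probe set 1451022_at differed by log2 -0.56 and -0.10. Fzd4, the receptor of the vascular ligand norrin, had probe sets of opposite sign in pair 1. They gave 421 and 256 in pair 1 and 49.4 and 51.4 in pair 2 for 1419301_at (log2 -0.65 in pair 1 and 0.034 in pair 2) and differences of log2 0.23 and -0.16 for 1434756_at. Fzd6 (1417301_at), which acts in planar polarity, was at 167 and 254 in pair 1 and 117 and 125 in pair 2 (log2 0.52 in pair 1 and 0.075 in pair 2), and Fzd10 (1455689_at) at 30.2 and 47.0 in pair 1 and 118 and 126 in pair 2 (log2 0.34 in pair 1 and 0.074 in pair 2). Fzd9 (1427529_at), a receptor of hippocampal progenitors and neurons, differed by log2 -0.33 and 0.015, and Fzd2 (1418534_at) by -0.29 and -0.043. Fzd5 and Lrp5 had no probe set above the filter. The opposite-strand transcript Fzd10os (1441338_at) was at 164 and 43.2 in pair 1 and 117 and 128 in pair 2 (log2 -1.38 in pair 1 and 0.10 in pair 2), and whether its probes also detect Fzd10 was not tested.

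Inhibitors of the membrane and the cytoplasm, several of which are themselves induced by the pathway, did not share a direction. Over their 15 kept probe sets the medians were log2 0.07 in pair 1 and 0.0058 in pair 2. Axin2 (1436845_at), a scaffold of the beta-catenin destruction complex and a common readout of canonical signalling, showed signals of 538 (control) and 429 (knockout) among the replicate 1 arrays and of 164 and 179 among the replicate 2 arrays (log2 -0.31 in pair 1 and 0.11 in pair 2). The medians over all probe sets tested were -0.02 and 0.02. Its constitutive paralogue Axin1 (1426966_at) was at 834 and 871 in pair 1 and 147 and 142 in pair 2 (log2 0.061 in pair 1 and -0.042 in pair 2). The other kept Axin1 probe set, 1426967_at, differed by log2 -0.18 and 0.066. Apcdd1, a membrane inhibitor of Wnt signalling, had its brightest probe set, 1454822_x_at, at 2608 and 3134 in pair 1 and 565 and 509 in pair 2 (log2 0.26 in pair 1 and -0.14 in pair 2).

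Probe sets of a gene did not all have 1 sign here. For Apcdd1, 4 of 5 kept probe sets were higher in pair 1, by log2 0.08 to 0.35, whereas 1437604_x_at was at 1066 and 635 in pair 1 and 555 and 467 in pair 2 (log2 -0.72 in pair 1 and -0.24 in pair 2). This was the member with the smallest p in limma's fit with the replicate term, log2 -0.48, unadjusted p = 0.0396 and adjusted p = 0.9999. The ending _x_at of its name marks a probe set that may cross-hybridise with other transcripts. Other kept probe sets share this ending, among them 1454822_x_at and 1449070_x_at of Apcdd1 and 1457600_x_at of Nkd2. Nkd1, which binds dishevelled proteins, had 1429506_at at 261.5 and 293 in pair 1 and 118 and 124 in pair 2 (log2 0.15 in pair 1 and 0.063 in pair 2), while 1429507_at had 164.5 and 53.3 in pair 1 and 114 and 106 in pair 2 (log2 -1.20 in pair 1 and -0.085 in pair 2). Its paralogue Nkd2 had 1419465_at at 352 and 259 in pair 1 and 162 and 197 in pair 2 (log2 -0.40 in pair 1 and 0.24 in pair 2), and 1457600_x_at had 225 and 88.8 in pair 1 and 133 and 129 in pair 2 (log2 -1.08 in pair 1 and -0.03 in pair 2). The 4 Nkd2 probe sets ranged from log2 -1.08 to 0.25 in pair 1. Of 19 member genes with more than 1 probe set kept, 5 had 1 sign in each pair across all their probe sets, namely Ctnnb1, Dkk3, Fzd3, Rspo2 and Sfrp1.

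**Figure D4:**
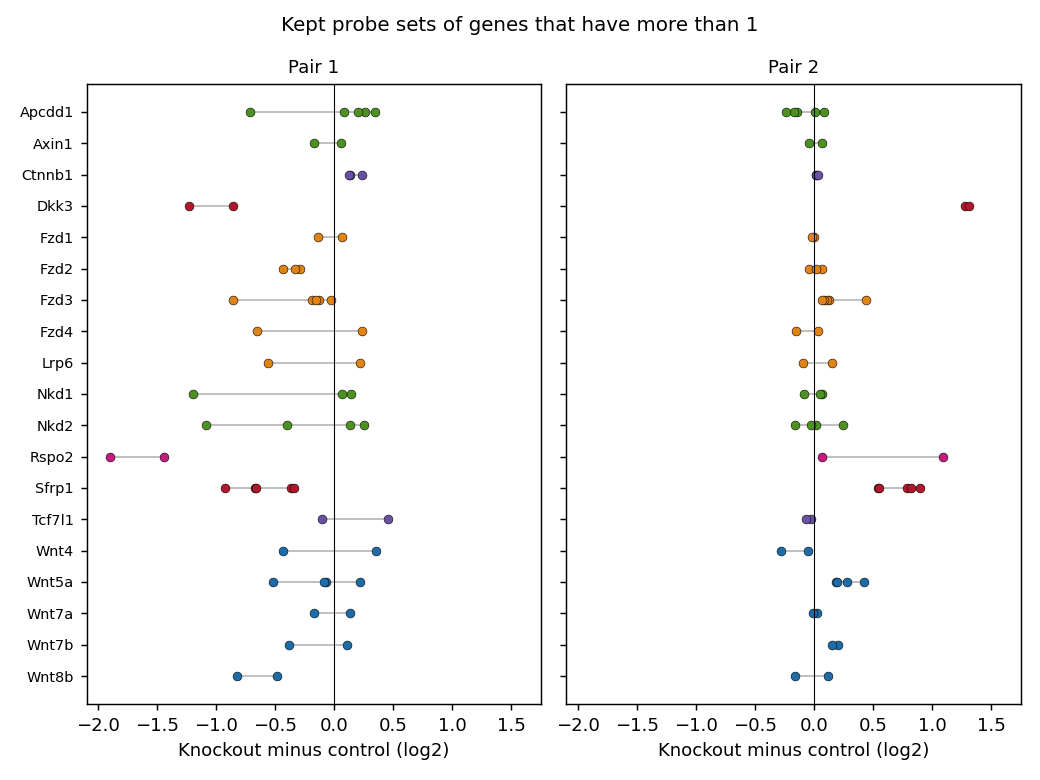
Difference between the knockout-labelled and the control-labelled array (log2 scale) for every kept probe set of the 19 member genes with more than 1, in pair 1 (left) and pair 2 (right); each point is a probe set and the grey line spans the gene's range. Sfrp1 and Dkk3 lie wholly left of 0 in pair 1 and right of 0 in pair 2, whereas Apcdd1, Nkd1 and Nkd2 lie on both sides in pair 1.

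Beta-catenin itself had a high signal that was nearly equal between the groups. Ctnnb1 (1420811_a_at) showed signals of 24919 (control) and 27361 (knockout) among the replicate 1 arrays and of 5504 and 5557 among the replicate 2 arrays (log2 0.13 in pair 1 and 0.014 in pair 2), and its 3 probe sets were higher by log2 0.12 to 0.24 in pair 1 and by 0.01 to 0.04 in pair 2. Lef1, the TCF/LEF factor of the dentate gyrus, had 284 and 193 in pair 1 and 271 and 283 in pair 2 for 1454734_at (log2 -0.49 in pair 1 and 0.056 in pair 2). Tcf7l2, a factor best known in the forebrain for its high level in the thalamus, was lower in both pairs (1429428_at, 95.3 and 80.3 in pair 1 and 127 and 74.9 in pair 2, log2 -0.18 in pair 1 and -0.57 in pair 2), on signals below the array median on 3 of 4 arrays. Its 3 other probe sets, all under the filter, were also lower in pair 2, while 1429427_s_at was higher in pair 1 (4.5 and 72.1 in pair 1 and 62.7 and 31.9 in pair 2). Of 5 thalamic genes kept, Tcf7l2 among them, 3 were lower in pair 1 and 4 in pair 2, with medians of log2 -0.03 and -0.11. Tcf7l1 (1436207_at), which mostly represses Wnt targets, had 210.2 and 301 in pair 1 and 199 and 195 in pair 2 (log2 0.46 in pair 1 and -0.029 in pair 2). Its other kept probe set, 1450117_at, differed by log2 -0.10 and -0.07.

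Among the 72 members kept, differences over 2-fold, counted on the log2(signal + 32.56) scale, lay on the lower side in pair 1 and on the higher side in pair 2. In pair 1, 7 members were over 2-fold lower (9.72%, against 2.69% of all) and 0 over 2-fold higher (against 1.68%). The 7 were both Rspo2 probe sets, 1 probe set each of Dkk3, Fzd8, Nkd1 and Nkd2, and Fzd10os. In pair 2, 3 members were over 2-fold higher (4.17%, against 0.248% of all), namely 2 probe sets of Dkk3 and 1 of Rspo2, and 0 over 2-fold lower (against 0.27%). Of the 2 members over 2-fold lower in pair 1 and over 2-fold higher in pair 2 (0.0962% of all), 1 was for Dkk3 and 1 for Rspo2. By the ratio of deposited signals, with no pseudocount, 9 members were over 2-fold lower in pair 1 (12.5%, against 4.58% of all), the further 2 being probe sets of Wnt8b and Fzd3, and 6 were over 2-fold higher in pair 2 (8.33%, against 0.492% of all), the further 3 being probe sets of Sfrp1. By that ratio 0 were over 2-fold higher in pair 1 (against 2.82% of all) and 0 over 2-fold lower in pair 2 (against 0.574%). Over all 72 members kept, the medians were log2 -0.17 in pair 1 and 0.05 in pair 2; with the filter at the 60th percentile the pair 1 median turned sign to 0.0625. In all, 25 (34.7%) had 1 sign in both pairs, against 46.2% of all. Another 34 (47.2%) were below the control in pair 1 and above it in pair 2, whatever the size, against 30.5% of all probe sets tested. The 44 members under the filter ranged from -1.48 to 1.56 in pair 1 and from -0.56 to 0.58 in pair 2, and 28 of them had a replicate 1 signal below 20 on at least 1 array.

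Other genes of the pathway, from a list of 54 of which 47 were kept, showed no shared direction. Limma called 0 of them. They were lower in pair 1 for 25 genes and in pair 2 for 28, with medians of log2 -0.03 and -0.04. Of the 47, 14 had the signs of Dkk3, against 30.5% of all probe sets tested, and 17 had the reverse, against 6290 of all 27022. The widest gap between the pairs was that of Tle4, a Groucho co-repressor that binds TCF factors, with 2681 and 1442 in pair 1 and 399 and 789.7 in pair 2 (log2 -0.88 and 0.93). Prickle1, a planar polarity protein, had 1129 and 687 in pair 1 and 107 and 251.5 in pair 2 (log2 -0.69 and 1.03). Both were below the control in pair 1 and above it in pair 2, as was the polarity cadherin gene Celsr1, with 454 and 253 in pair 1 and 83.4 and 118 in pair 2 (log2 -0.77 and 0.38). Lgr4, a receptor of R-spondins, went the other way, with 391 and 596 in pair 1 and 403 and 276 in pair 2 (log2 0.57 and -0.50). Dact2, a dishevelled-binding protein, had 33.9 and 129.7 in pair 1 and 81.5 and 72.9 in pair 2 (log2 1.29 and -0.11), and Vangl1, a membrane protein of planar polarity, 128 and 302 in pair 1 and 108 and 119 in pair 2 (log2 1.06 and 0.11).

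Markers of other tissues differed within the pairs too. Of 9 meningeal genes 3 had the signs of Dkk3, against 30.5% of all probe sets tested. The meningeal list's summed signal was 11619 and 9700 in pair 1 and 1353 and 1577 in pair 2. Of the 9 liver genes kept, Ttr apart, the 8 others were all lower in pair 1, and the list's medians were log2 -2.07 in pair 1 and 0.06 in pair 2. Among 9 genes of GABAergic interneurons, 8 were above the control in pair 1 and below it in pair 2, the signs of Frzb and Fzd7. Of all 27022 probe sets tested, 6290 had those signs. Of 7 choroid plexus genes kept, 5 were higher in the knockout-labelled array in both pairs, against 6640 of all 27022 probe sets tested. The medians of the 7 were log2 0.44 and 0.43, and Folr1, named after its values were seen, had 360 and 705 in pair 1 and 69.0 and 114 in pair 2. Of 7 microglial genes, 5 lay above the control in pair 1 and 6 lay below it in pair 2 (medians log2 0.05 and -0.28). The medians were log2 -0.31 and 0.02 for 7 endothelial genes and log2 -0.05 and 0.13 for the 5 genes of Cajal-Retzius cells that were kept. The part of these tissues in the values of the Wnt pathway genes was not tested.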

How the data were processed

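Hippocampal RNA was measured on 4 Affymetrix arrays, 2 control and 2 knockout, grouped by their titles. The authors deposited linear signal intensities, computed by MAS5, per the submitters' processing notes; its version, scaling target and the genome build are not given in the sources used here. The number of arrays limits the precision.

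The platform annotation named the probe sets (34945 with 1 symbol, 932 with several, 9160 with none). All 116 members matched RefSeq by Entrez ID, and 0 symbols changed. Signals were taken as log2(signal + 32.56), the pseudocount being the 20th percentile of all values. The authors' scaling was kept, and those probe sets whose mean exceeded the 40th percentile (27022) were tested singly with limma 3.58.1 in R 4.3.3 (lmFit, eBayes with a trend, Benjamini-Hochberg over all, threshold 0.05), checked on simulated data. Genes described through 1 probe set used the kept one with the highest mean. Full values are given for up to 6 genes per role with the widest mean absolute difference and up to 3 with the highest signal, and for any member over 2-fold apart. Members, lists and rules were chosen with earlier results of these data known. Alternatives covered normalization, scaling, pseudocount, filter, 1 probe set per gene, trend, replicate term and leaving out each array.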

Additional observations from a re-analysis of the deposited data

How the results depend on the processing

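The count of members called was 0, and that of all probe sets called was 0, under each of the 13 alternatives run, and without each array in turn both ranged from 0 to 0. Unadjusted p-values under 0.05 were found by limma for 0 to 2 members across these settings. With the replicate number as a block the count called was 0; the numbers are not stated to mark litters or days, and the deviations from the group mean had a correlation of 0.837 between arrays that share a number. The members' pair 1 median (log2 -0.17) changed sign to 0.0625 with a filter at the 60th percentile, which kept 38 members, and otherwise lay between -0.19 and -0.10. The pair 2 median (0.05) lay between 0.04 and 0.07. The number of members with 1 sign in both pairs was 25 of 72, and became 42 of 116 with no filter, 13 of 38 with the stricter filter and 11 of 37 with 1 probe set per gene, where fewer or more probe sets were counted. It was 31 of 75 (41.3%, against 47.2% of all) with quantile normalization, 28 of 73 (38.4%, against 46.0%) with 1 trimmed mean and 24 of 70 with no pseudocount. Counted by the ratio of deposited signals, an alternative chosen after seeing the data, members over 2-fold lower in pair 1 went from 7 to 9 and those over 2-fold higher in pair 2 from 3 to 6. Of 482 within-pair differences of named members recomputed, 6 changed sign, and 0 of the 220 that were over log2 0.3 in size. Most of the 482 could not change sign, because another filter, another pseudocount or 1 probe set per gene cannot turn the sign of such a difference. All 6 changes came from quantile normalization or a common trimmed mean, the alternatives among these that can turn it. Differences of single members across all 4 arrays are not called under any setting, and leaving out 1 array sets groups on unequal scales against each other, with the lone array assumed to vary like the other group.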
